A study of Mus musculus with 18 samples.

Results

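The comparison described here set RAW264.7 cells treated with SB24011 alone against cells treated with the vehicle. RAW264.7 is an established mouse macrophage-like line, labelled wild type (WT). Both groups spent 6 h in serum-free DMEM, with 20 uM SB24011 or with DMSO, and no STING agonist was added to either. The title of the series presents SB24011 as an inhibitor of the contact between STING and TRIM29. The members are 6 of the 18 libraries of the series, 3 per group, and every gene of the deposited table was considered. The other 12 libraries came from cells given 20 uM cGAMP, a cyclic dinucleotide that activates STING, without or with 10 or 20 uM SB24011 or 20 uM of 7a, described as its negative analog. The labels do not say whether the 3 libraries of a group came from separate cultures, so p-values measure the spread between these libraries, which may be technical.

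Several of the gene groups below belong to the integrated stress response. In that pathway a kinase such as PERK, GCN2, HRI or PKR phosphorylates the initiation factor eIF2, which slows protein synthesis in general while the mRNA of the transcription factor ATF4 is translated more. ATF4 and its partner CHOP, the product of Ddit3, then raise genes for amino acid uptake, amino acid synthesis, tRNA charging and feedback. In macrophages the same kinases respond to amino acid shortage, misfolded protein in the endoplasmic reticulum (ER), haem shortage and double-stranded RNA. STING carries the signal of the DNA sensor cGAS to interferon and NF-kB target genes.

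The 6 libraries held 48836900 to 65810500 counts, so 3 counts in a library correspond to 0.0456 to 0.0614 CPM (counts-per-million) before scaling. TMM scaling factors were 1.03 to 1.05 with DMSO and 1.09 to 1.11 with SB24011, and mitochondrial transcripts took 2.74% to 3.06% and 2.53% to 3.06% of the counts. The summed level of 32 macrophage identity genes was 12770 to 14270 CPM with DMSO and 12640 to 13940 CPM with SB24011, and none of the 32 was at 0 in all 6 libraries. T and NK cell markers summed to at most 0.158 CPM with 8 of 10 at 0, and neutrophil markers to at most 0.228 CPM with 7 of 8 at 0. B cell markers summed to 66.0 to 108 CPM and 73.7 to 127 CPM, nearly all of it Ighm, while Ms4a1 and Ebf1 were at 0. Fibroblast, endothelial and epithelial markers summed to 0.451 to 0.501 CPM and 0.377 to 1.06 CPM, with 7 of 11 at 0. The first principal component of the 6 libraries held 58.3% of their variance and separated the groups, and the second held 12.7% and set replicate 1 of both groups apart from the others.

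Many genes changed with SB24011, most of them by a small amount. Of 14650 genes tested with edgeR, 6541 (44.6%) passed an adjusted p under 0.05, with 2988 higher (20.4%) and 3553 lower (24.3%). At least 2-fold changes were called in 712 genes that rose (4.86%) and 315 that fell (2.15%). Among the calls, 1319 rises and 2211 falls were smaller than 0.5 on the log2 scale, while 102 rises and 16 falls exceeded 3. Over all genes tested the log2 fold changes had a median of -0.0067, and in 56.6% of genes all libraries of 1 group lay above all of the other. The share of called genes that were higher was 45.7%, against 57.4% with scaling by library size alone and 55.7% with library set 1 left out. The last setting removes replicate 1 of DMSO and of SB24011 only. Values are shares of the reads of a library, so a gene that falls relative to the others cannot be told apart from a rise of the rest, nor fewer cells from less RNA per cell.

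Gene lists were described by counts of members called and by their median. Lists and members were chosen with earlier results of these data known, so the counts and motif shares describe the lists and are not independent support. At the upper end stood ATF4 and CHOP factors, circadian clock genes and amino acid transporters. At the lower end stood genes for origin licensing, the replication fork, the G1/S transition and nucleotide supply. The background shares to read these counts against are 20.4% higher and 24.3% lower. Medians close to 0, such as those of the ER stress, mitochondrial tRNA, autophagy, V-ATPase, NRF2 and respiratory lists, moved by over 1.5 times under several alternatives and were not read as directions.

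**Figure D1:**
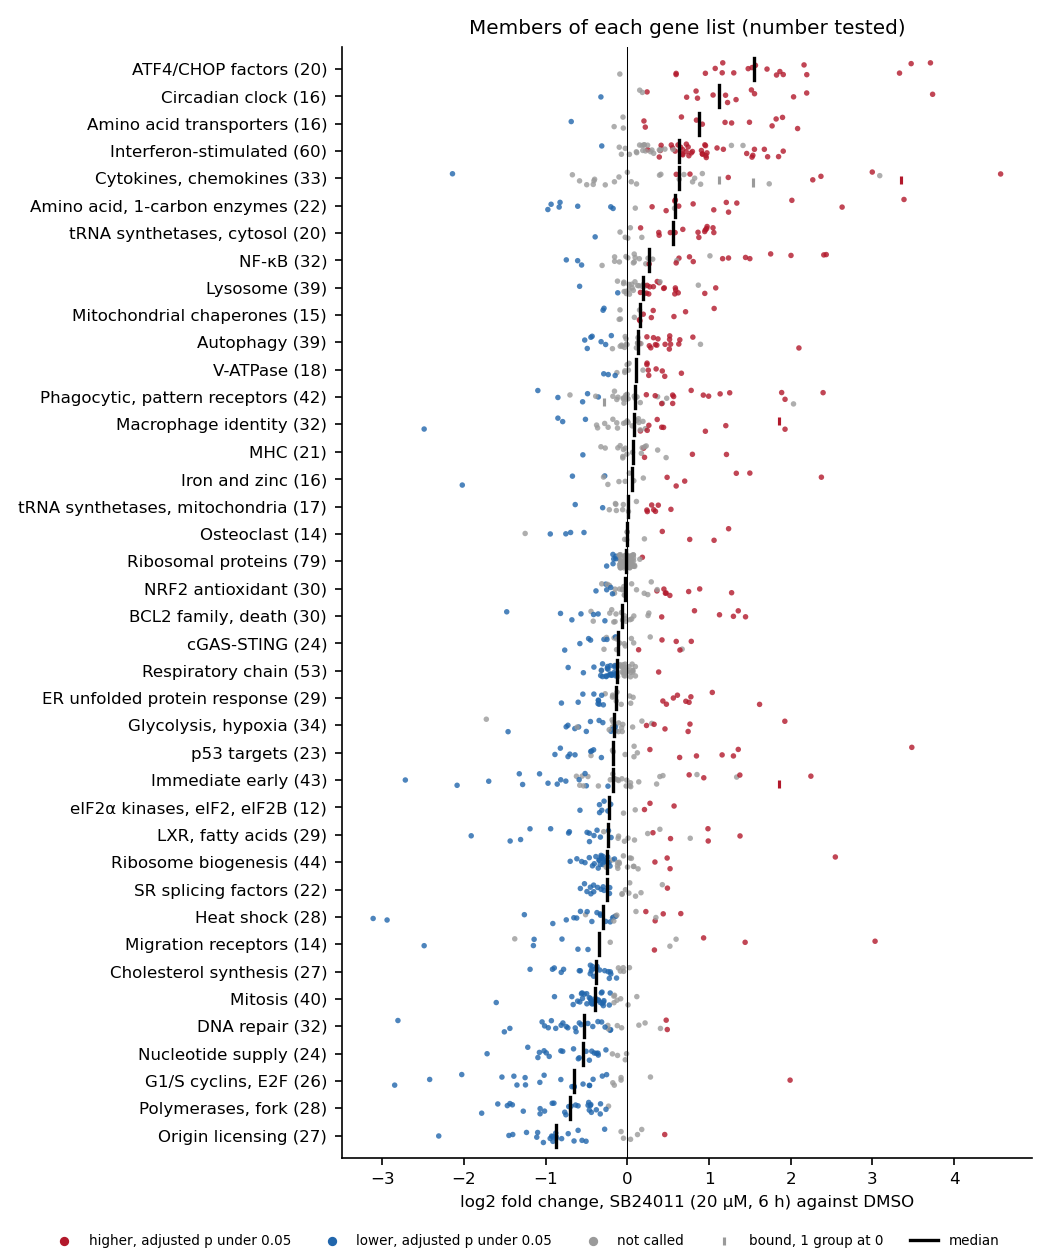
Log2 fold change with SB24011 against DMSO (x axis) for the tested members of 40 gene lists (y axis, number tested in brackets). Points are genes, coloured by call at an adjusted p under 0.05, short ticks are bounds for genes with no read in 1 group, and black bars are list medians, which run from 1.55 for ATF4 and CHOP factors to -0.87 for origin licensing.

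The transcription factors and feedback genes of the ATF4 pathway rose almost as a whole. Of 20 tested members 19 rose and none fell, with a median log2 fold change of 1.55. The exception was Ppp1r15b, a phosphatase subunit for eIF2, at -0.09 (named after its value was seen). Atf4 itself (chromosome 15, 80255184 to 80257545 in GRCm38) stood at 305, 381 and 321 CPM with DMSO and 769.9, 749 and 742 CPM with SB24011. All SB24011 libraries lay above all DMSO libraries, and Atf4 rose by 1.17 ± 0.085 on the log2 scale (SE, adjusted p = 1.44e-08). Ddit3, which encodes CHOP, stood at 8.65, 15.2 and 10.8 CPM with DMSO and 109.5, 119 and 121 CPM with SB24011. It rose by 3.33 ± 0.18, with no overlap between groups, but its span is shared with Mars, a tRNA synthetase gene with a higher count. Trib3, a pseudokinase that feeds back on ATF4, stood at 11.4, 22.4 and 14.04 CPM with DMSO and 204, 213 and 211 CPM with SB24011. DMSO replicate 2 was the highest vehicle library for all 3 genes and lay below the treated ones.

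Further members of this list are feedback and stress genes, several of them named after their values were seen. Gdf15, a secreted stress cytokine, stood at 1.01, 1.95 and 1.098 CPM with DMSO and 13.5, 16.5 and 15.5 CPM with SB24011 and rose by 3.48 ± 0.28. Ppp1r15a, the inducible subunit that returns eIF2 to its unphosphorylated form, rose by 2.16 ± 0.11, and the mTORC1 inhibitor gene Sesn2 by 1.91 ± 0.15. The ATF4 partners Atf5 and Atf3 rose by 2.197 ± 0.14 and 1.87 ± 0.24; the span of Atf5 is shared with the more abundant Nup62. Nupr1, a stress-induced chromatin protein gene, rose by 1.83 ± 0.12, the glutathione-degrading enzyme gene Chac1 by 1.48 ± 0.18 and Cebpb by 0.96 ± 0.12. The eIF2 machinery itself went in mixed directions, with 3 of 12 members higher and 7 lower, or 4 lower without DMSO replicate 2 and 3 with library size alone or library set 1 left out. The kinase genes Eif2ak1 (HRI) and Eif2ak4 (GCN2) fell by 0.34 ± 0.056 and 0.34 ± 0.097, the latter losing its call with library set 1 left out (-0.21, adjusted p = 0.223) or scaling by library size alone (-0.27, adjusted p = 0.0579). Eif2s2, the beta subunit of eIF2, rose by 0.57 ± 0.061, while the eIF2B subunit gene Eif2b1 fell by 0.58 ± 0.068.

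The promoters of these genes were searched for the composite site of C/EBP and ATF factors, spelled TGATGNAA, on both strands. RefSeq promoters of GRCm38.p6 cover 250 bases before to 50 after each start, and 10459 of the tested genes had one or more. The letters were in 2.50% of the 13286 promoters of tested genes, in 6.41% of the 702 promoters of genes at least 2-fold higher and in 1.74% of the 287 of genes at least 2-fold lower. They were in 22.7% of 22 promoters of the ATF4 factor list, 18.2% of 22 for amino acid transporters, 15% of 20 for amino acid enzymes and 38.5% of 13 for cytosolic tRNA synthetases. Stretches around the matches are shown for 5 genes that rose, to let the shared letters be compared, with the match in capitals. In Slc7a11 both strands hold it.
Chac1 (chr2:119351024-119351081, plus strand): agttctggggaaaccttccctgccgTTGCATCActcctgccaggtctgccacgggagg
Atf3 (chr1:191183411-191183468, minus strand): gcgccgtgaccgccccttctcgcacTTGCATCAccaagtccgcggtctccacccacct
Nupr1 (chr7:126625548-126625605, minus strand): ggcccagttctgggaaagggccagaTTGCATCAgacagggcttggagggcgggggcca
Asns (chr6:7693210-7693257, minus strand): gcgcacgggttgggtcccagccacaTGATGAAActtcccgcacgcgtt
Slc7a11 (chr3:50443628-50443704, minus strand): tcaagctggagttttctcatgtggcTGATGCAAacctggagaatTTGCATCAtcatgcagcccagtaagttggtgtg
The first base of the match lies 193, 110, 110 and 23 bases before the annotated start in Chac1, Atf3, Nupr1 and Asns. It lies 66 and 47 bases before it in Slc7a11. A match describes the letters only, and a promoter without it may hold the site elsewhere.

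Of 16 amino acid transporter genes 12 rose and 1 fell, with a median of 0.88. Slc1a4, a carrier of serine and other neutral amino acids, stood at 23.2, 30.9 and 28.8 CPM with DMSO and 115, 118 and 118 CPM with SB24011. It rose by 2.08 ± 0.14, with the 3 treated libraries within a narrow range. The glycine transporter gene Slc6a9 stood at 31.3, 30.6 and 31.4 CPM with DMSO and 108, 109 and 112 CPM with SB24011 and rose by 1.82 ± 0.074 (adjusted p = 2.99e-11). Slc3a2, the heavy chain shared by several amino acid exchangers, rose by 1.77 ± 0.12, and its light chains Slc7a5 and Slc7a7 by 1.196 ± 0.091 and 1.9 ± 0.18, the last overlapping Oxa1l. Slc7a11, the light chain that imports cystine, stood at 59.5, 146 and 67.9 CPM with DMSO and 220.3, 242 and 200.4 CPM with SB24011 and rose by 1.28 ± 0.36. Its vehicle libraries were uneven, with replicate 2 highest, and the call was lost with library set 1 left out (1.11, adjusted p = 0.068). The member that fell was Slc7a6, a further light chain, by 0.69 ± 0.097.

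Enzymes of amino acid and folate metabolism divided, with 13 of 22 higher, 7 lower and a median of 0.58. Cth, which makes cysteine from cystathionine, stood at 9.95, 13.4 and 9.94 CPM with DMSO and 107, 125 and 118 CPM with SB24011. The treated libraries were all far above the vehicle libraries, a rise of 3.39 ± 0.13 (adjusted p = 2.87e-11). Asns, the asparagine synthetase gene whose promoter is shown above, stood at 187, 193 and 210.0 CPM with DMSO and 519.9, 473 and 502 CPM with SB24011 and rose by 1.34 ± 0.08. Pycr1, the last enzyme of proline synthesis in mitochondria, rose by 2.01 ± 0.18. In folate metabolism the mitochondrial enzyme gene Aldh1l2 stood at 35.7, 34.1 and 39.8 CPM with DMSO and 234, 227 and 216 CPM with SB24011 and rose by 2.63 ± 0.11. The mitochondrial pair Mthfd2 and Shmt2 rose by 1.06 ± 0.066 and 0.59 ± 0.069, whereas their cytosolic counterparts Mthfd1 and Shmt1 fell by 0.61 ± 0.084 and 0.84 ± 0.1. These 4 were named after their values were seen.

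Most cytosolic enzymes that charge tRNA rose. Of 20 cytosolic aminoacyl-tRNA synthetase genes 14 rose and 1 fell, with a median of 0.56, and of 17 mitochondrial ones 7 rose and 2 fell, with a median of 0.01. The seryl enzyme gene Sars stood at 365, 404 and 396 CPM with DMSO and 808, 795 and 824 CPM with SB24011. Sars rose by 1.06 ± 0.062, and the glycyl, alanyl and tryptophanyl enzyme genes Gars, Aars and Wars by 1.05 ± 0.059, 0.98 ± 0.068 and 0.97 ± 0.064. Farsa, for phenylalanine, was the cytosolic gene that fell, by 0.39 ± 0.061. Among mitochondrial ones Tars2 rose by 0.53 ± 0.056 and Yars2 fell by 0.64 ± 0.081.

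Stress genes of the ER moved both ways, while more of those of mitochondria rose than fell. Of 29 ER unfolded protein response genes 9 rose and 10 fell, with a median of -0.14 (the lower count was 6 without DMSO replicate 2, SB24011 replicate 1 or SB24011 replicate 3, and 4 with library set 1 left out). Ern1, the sensor IRE1, stood at 13.4, 14.2 and 13.9 CPM with DMSO and 43.1, 42.6 and 41.9 CPM with SB24011 and rose by 1.62 ± 0.077. The sensor gene Atf6 rose by 0.78 ± 0.06 and the oxidase gene Ero1l by 1.04 ± 0.075. The 10 genes that fell were mostly chaperones and folding factors of the ER lumen. Sdf2l1 fell by 0.81 ± 0.15 and Calr fell by 0.54 ± 0.13. The others were Hsp90b1, Pdia6, Dnajb11, Dnajc3, Manf, Creld2, Hyou1 and Ero1lb. Pdia3 and Pdia4 were not called (-0.27 and -0.16), while Dnajb9 rose by 0.76. Hspa5, the abundant ER chaperone BiP, stood at 1616, 1995 and 1759 CPM with DMSO and 1513, 1750.3 and 1469 CPM with SB24011 and was not called (-0.18 ± 0.10, adjusted p = 0.134), except with a replicate block (adjusted p = 0.0127). Of 15 mitochondrial chaperone and protease genes 8 rose and 2 fell, with a median of 0.15. The matrix protease gene Lonp1 stood at 181, 180.5 and 172 CPM with DMSO and 381, 372 and 362 CPM with SB24011 and rose by 1.06 ± 0.066, and the chaperone genes Dnaja3 and Hspa9 rose by 0.71 ± 0.084 and 0.57 ± 0.067.

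**Figure D2:**
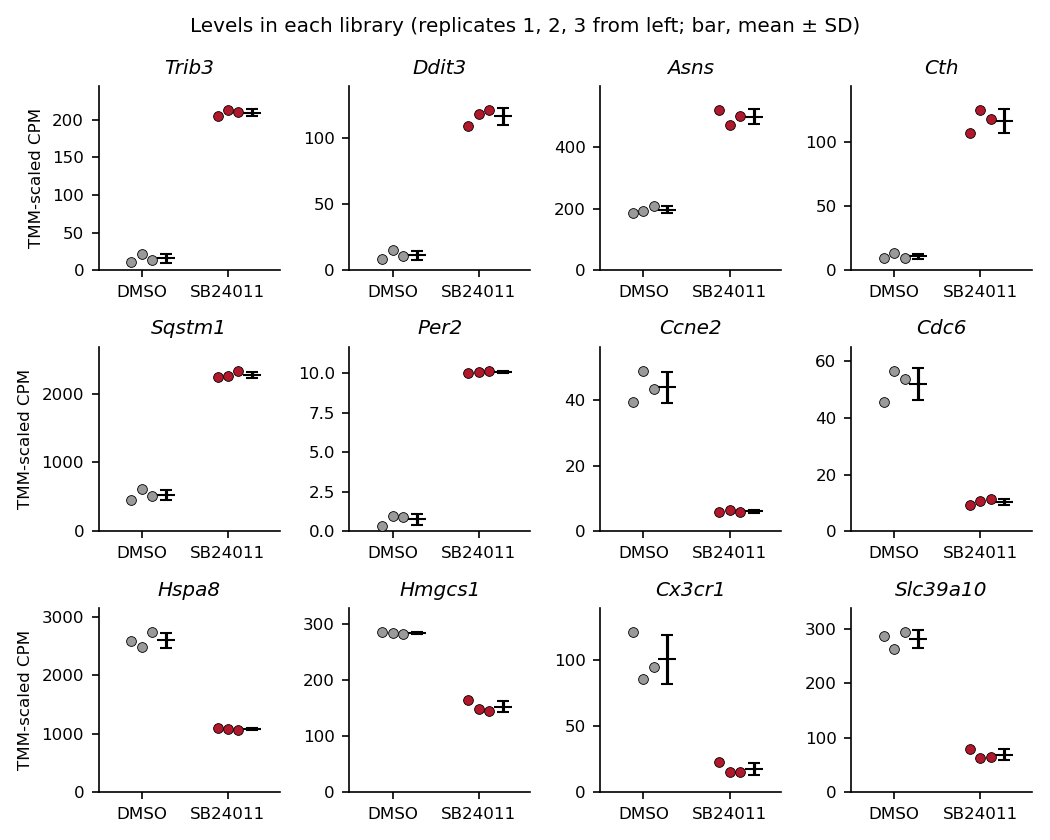
TMM-scaled CPM (y axis, linear from 0) in each library for 12 genes of the ATF4, amino acid, autophagy, clock, cell cycle, heat shock, cholesterol, receptor and zinc groups, with DMSO in grey and SB24011 in red. Points are libraries, replicate 1 to 3 from left to right, and the bar is the mean with its SD; the 2 groups do not overlap in any panel.

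Genes that take a cell from G1 into DNA synthesis fell. Cyclins of the D and E types drive the kinases that release E2F factors, and E2F in turn raises the genes for licensing origins, copying DNA and supplying nucleotides. Of 26 G1/S genes 20 fell and 1 rose (2 with the replicate block), with a median of -0.65. Ccne1, cyclin E1, stood at 40.8, 48.6 and 49.4 CPM with DMSO and 6.75, 9.61 and 9.57 CPM with SB24011. Each treated library held less than the lowest vehicle library, and Ccne1 fell by 2.42 ± 0.15 (adjusted p = 2.86e-09). Its paralog Ccne2, whose span is shared with the more abundant Ints8, stood at 39.4, 48.9 and 43.5 CPM with DMSO and 5.89, 6.52 and 5.88 CPM with SB24011 and fell by 2.85 ± 0.15. E2f7, an E2F that represses, fell by 2.03 ± 0.12, and E2f1, an activator named after its value was seen, by 1.35 ± 0.13. The member that rose was Ccnd2, cyclin D2, from a low level, at 0.998, 1.44 and 1.39 CPM with DMSO and 3.67, 6.49 and 5.08 CPM with SB24011, by 1.99 ± 0.32. Of 4 tested CDK inhibitor genes none rose, and Cdkn2c and Cdkn2d fell by 0.64 ± 0.087 and 0.37 ± 0.12; Cdkn2d lost its call without DMSO replicate 1 or 3 (adjusted p = 0.0693 and 0.0680), without SB24011 replicate 2 (0.112), with library size alone (0.0668) and with library set 1 left out (0.0807). Cdkn1a, the p21 gene and a p53 target, stood at 195, 195 and 193 CPM with DMSO and 235, 190.2 and 209 CPM with SB24011 and was not called (0.12 ± 0.12, 95% interval -0.13 to 0.37).

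Genes of origin licensing and of the replication fork fell too. Of 27 licensing and helicase loading genes 21 fell and 1 rose, with a median of -0.87. Cdc6, which loads the MCM helicase on origins, stood at 45.5, 56.4 and 53.6 CPM with DMSO and 9.34, 10.6 and 11.4 CPM with SB24011. Cdc6 fell by 2.31 ± 0.12, and its lowest vehicle library was above the highest treated one. The helicase subunit gene Mcm6 stood at 297, 297 and 307 CPM with DMSO and 117, 106 and 117 CPM with SB24011 and fell by 1.403 ± 0.065 (adjusted p = 1e-10), and Mcm4 and Mcm7 fell by 1.45 ± 0.078 and 1.23 ± 0.084. The member that rose was Recql4, a helicase gene, which did so by 0.46 ± 0.14. Of 28 polymerase and fork genes 27 fell, and the other, Pold2, was at -0.23 and not called (named after its value was seen). Clspn, the checkpoint adaptor Claspin, stood at 73.95, 70.2 and 72.8 CPM with DMSO and 19.7, 22.9 and 20.4 CPM with SB24011 and fell by 1.78 ± 0.104. Rpa2, a subunit of the single-strand binding complex, fell by 1.59 ± 0.065, the histone loader gene Chaf1a by 1.47 ± 0.072 and the sliding clamp gene Pcna by 1.01 ± 0.07.

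The E2F letter strings, TTTGGCGC and TTTCCCGC, were searched on both strands of the same promoters. They were in 2.82% of promoters of tested genes, 0.997% of those at least 2-fold higher and 6.97% of those at least 2-fold lower. The share was 34.6% of 26 promoters for licensing, 20% of 25 for G1/S and 17.9% of 28 for the polymerases. The stretches below belong to 4 genes that fell, with matches in capitals.
Cdc6 (chr11:98907988-98908045, plus strand): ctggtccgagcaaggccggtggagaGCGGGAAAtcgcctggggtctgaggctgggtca
Mcm6 (chr1:128359720-128359840, minus strand): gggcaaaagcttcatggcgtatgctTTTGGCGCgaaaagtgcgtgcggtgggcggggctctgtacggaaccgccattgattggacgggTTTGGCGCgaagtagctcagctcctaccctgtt
Mcm7 (chr5:138172016-138172073, minus strand): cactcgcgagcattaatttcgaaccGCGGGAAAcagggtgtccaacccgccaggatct
E2f7 (chr10:110745216-110745273, plus strand): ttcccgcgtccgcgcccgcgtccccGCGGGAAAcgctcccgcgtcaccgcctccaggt
The matches begin 138, 165 and 198 bases before the annotated start in Cdc6, Mcm7 and E2f7. The 2 in Mcm6 begin 110 and 47 bases before it. Mitotic genes, which are usually read through a different element with the letters TTTGAA, held that string in 72.2% of 36 promoters against 13.01% for all genes tested, and the E2F strings in none. In genes at least 2-fold lower TTTGAA was in 13.24% of promoters and in those at least 2-fold higher in 11.4%.

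Most genes for nucleotide supply, DNA repair and mitosis fell as well. Of 24 nucleotide genes 20 fell and none rose, with a median of -0.55. Rrm2, the regulated subunit of ribonucleotide reductase, stood at 202, 226 and 237 CPM with DMSO and 60.6, 74.7 and 66.7 CPM with SB24011 and fell by 1.72 ± 0.16. Of 32 repair and checkpoint genes 23 fell and 2 rose (5 with the replicate block), with a median of -0.52. Ung, the glycosylase that removes uracil from DNA, stood at 30.2, 36.3 and 33.1 CPM with DMSO and 3.88, 5.28 and 5.05 CPM with SB24011. Ung fell by 2.81 ± 0.27, the largest fall of the list, and the mismatch repair genes Msh6 and Exo1 fell by 1.51 ± 0.077 and 1.44 ± 0.12. The genes that rose were Xpc and Xrcc5, by 0.49 ± 0.072 and 0.48 ± 0.085. Of 40 mitotic genes 33 fell and none rose, with a smaller median of -0.40. Mybl2, a regulator of mitotic genes, fell by 1.61 ± 0.14, the kinase genes Aurkb and Cdk1 by 0.89 ± 0.11 and 0.66 ± 0.054, and the tubulin gene Tuba1b, outside the list, by 1.18 ± 0.07.

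Targets of p53 had no shared direction. Of 23 tested, 7 rose and 9 fell, with a median of -0.17 (-0.054 without SB24011 replicate 2 and -0.086 without replicate 3). Gadd45a, a growth arrest gene that ATF4 also raises, stood at 0.528, 1.297 and 0.863 CPM with DMSO and 9.17, 11.6 and 9.37 CPM with SB24011 and rose by 3.48 ± 0.26. Bbc3, the pro-apoptotic BH3 protein PUMA, rose by 1.36 ± 0.14. Among 30 genes of the BCL2 family and death receptors 6 rose (20.0%) and 7 fell (23.3%), near the 20.4% and 24.3% of all genes tested. With the replicate block 12 fell. Bcl2a1b, a survival gene with near-identical copies whose reads may be split between them, rose by 1.45 ± 0.18, and the BH3 gene Bmf fell by 1.48 ± 0.28.

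Cytosolic heat shock genes fell. Of 28 tested, 18 fell and 4 rose (2 without DMSO replicate 3, SB24011 replicate 1 or SB24011 replicate 2), with a median of -0.30. Hspa1b, an inducible HSP70 gene with a near-identical copy in Hspa1a, stood at 9.66, 8.14 and 12.1 CPM with DMSO and 1.303, 1.16 and 0.977 CPM with SB24011. Hspa1b fell by 3.11 ± 0.41 and Hspa1a fell by 2.94 ± 0.38, and reads may be split between the copies. Hspa8, the constitutive HSP70 gene, stood at 2576, 2474 and 2735 CPM with DMSO and 1100.0, 1078 and 1070.4 CPM with SB24011 and fell by 1.26 ± 0.11 with little spread among the treated libraries. Hsph1, a nucleotide exchange factor of HSP70, fell by 0.91 ± 0.11. Of the members that rose, the ubiquitin gene Ubb did so by 0.65 ± 0.083 and Hspa13, an HSP70 relative in microsomes, by 0.44 ± 0.099.

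Ribosome production and energy genes shifted by small amounts. Of 44 ribosome biogenesis genes 25 fell and 4 rose, with a median of -0.25, and 12 fell with library set 1 left out. Polr1b, a subunit of RNA polymerase I, fell by 0.7 ± 0.093 and the nucleolar phosphoprotein gene Nolc1 by 0.62 ± 0.105. Myc, the transcription factor known to raise such genes, stood at 1.86, 2.06 and 1.55 CPM with DMSO and 11.6, 9.303 and 11.3 CPM with SB24011 and rose by 2.55 ± 0.297. Of 79 ribosomal protein genes 1 rose and 6 fell, while 3 rose and 11 fell with the replicate block. The lower count was 2 without DMSO replicate 3, 3 without DMSO replicate 2 or SB24011 replicate 1, and none with library size alone, where 7 rose. Their median was -0.017, and it was 0.007 with RLE factors and 0.056 with library size alone, so that no direction held. Of 53 nuclear genes of the respiratory chain 1 rose and 23 fell, or 4 rose and 12 fell with library size alone and 9 fell with library set 1 left out. Sdhd, a membrane anchor of complex II, fell by 0.72 ± 0.058 and the cytochrome c gene Cycs by 0.54 ± 0.062. Of 34 glycolysis and hypoxia genes 6 rose and 13 fell. The lower count was 7 without DMSO replicate 1 or SB24011 replicate 2, 8 without DMSO replicate 3, 7 with library size alone and 4 with library set 1 left out. Ldha, lactate dehydrogenase, fell by 0.597 ± 0.081, while Ndrg1, a gene known from hypoxia and stress, rose from 88.2, 94.1 and 77.5 CPM by 1.93 ± 0.13. Of 22 SR splicing genes 13 fell and 1 rose (3 with the replicate block), and Srsf3 fell by 0.49 ± 0.052.

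Most cholesterol synthesis genes were lower. Of 27 tested 22 fell and none rose, with a median of -0.38. Hmgcs1, which makes HMG-CoA, stood at 286, 285 and 283 CPM with DMSO and 165, 149.6 and 145 CPM with SB24011. The vehicle libraries were nearly equal, the treated ones all lower, and Hmgcs1 fell by 0.89 ± 0.062. The thiolase gene Acat2 fell by 1.19 ± 0.074, the cholesterol carrier gene Stard4 by 0.92 ± 0.088 and the isomerase gene Idi1 by 0.81 ± 0.064. Of 29 genes for LXR targets, fatty acid synthesis and lipid storage 15 fell and 5 rose. The fatty acid elongase gene Elovl6 fell by 1.31 ± 0.16, the LXR target Mylip by 1.44 ± 0.23 and Apoe, an LXR target named after its value was seen, by 1.19 ± 0.23. Abca1, the cholesterol efflux pump, fell by 1.91 ± 0.42 from a low level, 1.6, 1.69 and 1.12 CPM. The 5 that rose were Plin2, which coats lipid droplets, by 1.38 ± 0.093, the triglyceride enzyme genes Dgat2 and Dgat1, the LXR gene Nr1h3, whose span is shared with Acp2, and the fatty acid importer gene Cpt1a by 0.53 ± 0.13. An exact letter string for the sterol element was in 0.045% of promoters of tested genes and in none of 26 of the cholesterol list. With so low a share over all tested genes, this search cannot tell whether the cholesterol genes hold sterol sites. Dgat1 lost its call without DMSO replicate 3 (0.28, adjusted p = 0.079) or SB24011 replicate 2 (0.26, adjusted p = 0.086).

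More autophagy and lysosome genes rose than fell. Of 39 autophagy genes 17 rose and 7 fell, with a median of 0.13. Sqstm1, the receptor p62 that brings ubiquitinated cargo to autophagosomes, stood at 460.2, 611 and 519 CPM with DMSO and 2244, 2251 and 2326 CPM with SB24011. The treated libraries were close together and all above the vehicle libraries, a rise of 2.101 ± 0.11 (adjusted p = 2.75e-10). Fnip2, a partner of folliculin in lysosomal nutrient sensing, rose by 0.802 ± 0.13, and the receptor genes Tex264 and Calcoco1 by 0.64 ± 0.082 and 0.63 ± 0.13. Of 39 lysosome genes 16 rose and 2 fell, with a median of 0.20. Npc1, which exports cholesterol from lysosomes, stood at 95.9, 91.3 and 95.7 CPM with DMSO and 209.8, 189 and 199.8 CPM with SB24011 and rose by 1.08 ± 0.062. The glycosidase gene Naglu, the calcium channel gene Mcoln1 and the progranulin gene Grn rose by 0.95 ± 0.12, 0.62 ± 0.06 and 0.58 ± 0.071, and the sialidase gene Neu1 fell by 0.58 ± 0.083. Of 18 V-ATPase subunit genes 8 rose and 3 fell, or 5 rose without DMSO replicate 3 or SB24011 replicate 1 and 1 fell without SB24011 replicate 3. With library set 1 left out 9 rose and none fell. Among them Atp6v0a1 was higher by 0.66 ± 0.11. The letters CACGTG were in 35.3% of 34 lysosome promoters and 31.6% of 19 clock promoters, against 9.97% of promoters of tested genes. Their share was also 30.8% of 13 for cytosolic tRNA synthetases, and 23.1% of 26 and 21.4% of 28 for the cholesterol and polymerase lists, most of whose genes fell. It was 9.54% in genes at least 2-fold higher and 8.01% in those at least 2-fold lower.

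Metal handling and antioxidant genes moved in part. Of 16 iron and zinc genes 6 rose and 3 fell (6 with the replicate block). Slc39a10, a zinc importer, stood at 287, 264 and 294 CPM with DMSO and 80.3, 63.5 and 64.3 CPM with SB24011. It fell by 2.02 ± 0.12, while the zinc exporter gene Slc30a1 stood at 16.8, 25.1 and 13.3 CPM with DMSO and 48.9, 62.1 and 45.4 CPM with SB24011 and rose by 1.5 ± 0.26. Mt2, a metallothionein that binds zinc, stood at 17.5, 52.5 and 31.2 CPM with DMSO and 127, 213 and 185 CPM with SB24011 and rose by 2.38 ± 0.46. The other metallothionein gene of the list, Mt1, was not called (-0.24). On the iron side the exporter gene Slc40a1 rose by 1.33 ± 0.18 and the transferrin receptor gene Tfrc fell by 0.67 ± 0.13. Of 30 NRF2 target genes 8 rose and 5 fell, or 9 fell with the replicate block, 3 with library size alone and 2 with library set 1 left out. Their median was -0.034, and 0.039 with library size alone. Hmox1, haem oxygenase, stood at 119.6, 177 and 137 CPM with DMSO and 209, 274 and 247 CPM with SB24011 and rose by 0.75 ± 0.21, and Osgin1 rose by 0.89 ± 0.18.

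Clock genes rose almost throughout. The circadian clock is a loop in which CLOCK and BMAL1 raise Per and Cry genes, whose products repress them. Of 16 tested members 13 rose and 1 fell, with a median of 1.13. Per2 stood at 0.367, 0.973 and 0.941 CPM with DMSO and 9.99, 10.1 and 10.1 CPM with SB24011. The treated libraries were nearly equal, and Per2 rose by 3.74 ± 0.51. The repressor genes Cry2 and Ciart rose by 1.56 ± 0.26 and 2.04 ± 0.15, and the output factor gene Dbp by 2.196 ± 0.28, with a span shared with the more abundant Sphk2. Clock itself fell by 0.32 ± 0.062. The promoter of Ciart is shown because it holds the E-box letters CACGTG 3 times, here in capitals, beginning 116, 58 and 44 bases before the start.
Ciart (chr3:95882242-95882369, minus strand): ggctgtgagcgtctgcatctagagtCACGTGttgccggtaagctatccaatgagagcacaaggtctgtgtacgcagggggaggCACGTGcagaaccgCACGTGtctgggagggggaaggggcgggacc

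Interferon-stimulated genes were higher with SB24011, by an amount that differed between its libraries. Of 60 tested, 36 rose and 1 fell, with a median of 0.64. Relative to the DMSO mean the list median was 1.01 in SB24011 replicate 1, 0.22 in replicate 2 and 0.47 in replicate 3, and 57, 37 and 50 of the 60 genes were above the highest DMSO library. Without SB24011 replicate 1 the median was 0.314 and 21 rose, and 23 rose without DMSO replicate 3. Ifit3, an antiviral gene with a near-identical copy in Ifit3b, stood at 11.1, 8.47 and 9 CPM with DMSO and 51.1, 13.9 and 28.9 CPM with SB24011. The order of the treated libraries was the same as for the list, and the rise was 1.72 ± 0.32, or 1.17 without SB24011 replicate 1. Rsad2, the antiviral enzyme viperin, stood at 52.9, 42.5 and 37.6 CPM with DMSO and 239, 61.6 and 125 CPM with SB24011, with replicate 2 near the vehicle level. It rose by 1.68 ± 0.35, by 1.07 without SB24011 replicate 1, and with the 12 cGAMP libraries left out of the fit the call ended (adjusted p = 0.054). Isg15, a ubiquitin-like modifier, rose by 0.92 ± 0.21, or 0.606 without replicate 1. The member that fell, Eif2ak2, encodes PKR and is also an eIF2 kinase, and it lost its call under several alternatives, with -0.20 without SB24011 replicate 2 (adjusted p = 0.137) and -0.26 without DMSO replicate 1 (adjusted p = 0.0996) or SB24011 replicate 3 (adjusted p = 0.103). Cd274, the checkpoint ligand PD-L1, stood at 5.42, 4.51 and 4.88 CPM with DMSO and 23.4, 15 and 15.1 CPM with SB24011 and rose by 1.85 ± 0.16; its span is shared with Plgrkt. A letter string for the interferon-stimulated response element was in 45.5% of 55 promoters of the list and 3.37% of promoters of tested genes. It was in 6.13% of promoters of genes at least 2-fold higher and 2.09% of those at least 2-fold lower.

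**Figure D3:**
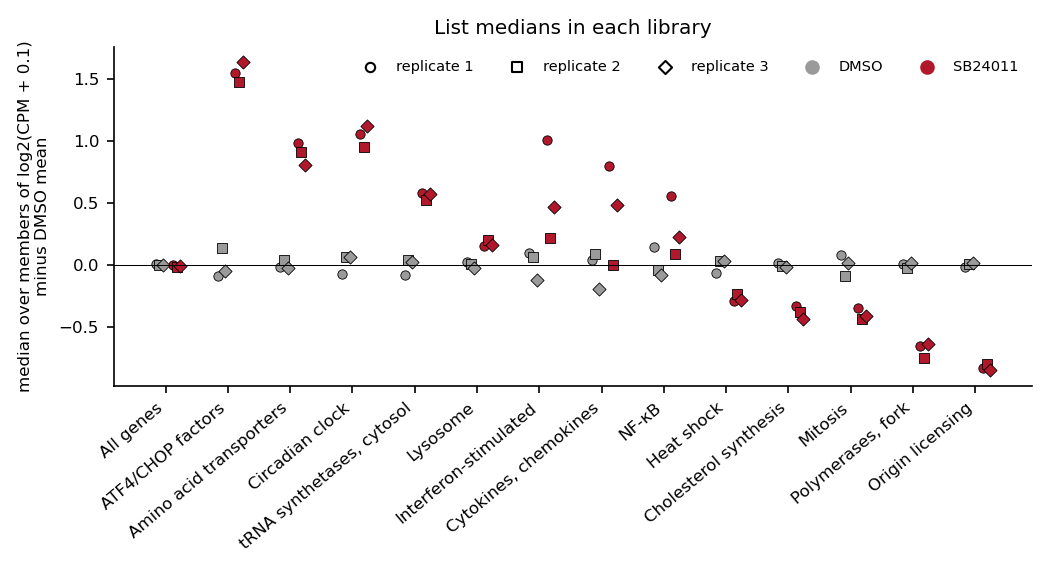
Median over list members of log2(CPM + 0.1) minus the DMSO mean of the same gene (y axis) in each of the 6 libraries, for all genes and 13 lists (x axis). Grey symbols are DMSO and red symbols SB24011, with circles, squares and diamonds for replicates 1, 2 and 3; the interferon list runs from 0.22 to 1.01 over the SB24011 libraries, while the ATF4 factor list runs from 1.47 to 1.63.

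Genes of the sensing pathway moved both ways, and the interferon beta gene was not called. Ifnb1, interferon beta, had 7, 0 and 5 reads with DMSO and 8, 2 and 11 with SB24011 and was not called (0.82 ± 0.64, adjusted p = 0.318). Cxcl10, an interferon-induced chemokine gene, stood at 14.3, 10.1 and 10.9 CPM with DMSO and 29.7, 8.699 and 18.7 CPM with SB24011, and these ranges overlap. It was not called (0.69, adjusted p = 0.103). Leaving out SB24011 replicate 2, the lowest treated library, gave 1.04 (adjusted p = 0.00321). Of 24 cGAS-STING pathway genes 5 rose (20.8%) and 7 fell (29.2%), near the 20.4% and 24.3% of all genes tested. With library size alone 4 fell, and 2 fell with library set 1 left out. The rises were 3 without DMSO replicate 2 or 3 or without SB24011 replicate 1 or 2. Cgas, the DNA sensor, stood at 89.3, 73.8 and 76.8 CPM with DMSO and 57.2, 38.9 and 44.9 CPM with SB24011 and fell by 0.77 ± 0.13. Tmem173, which encodes STING, stood at 31.4, 27.05 and 29.5 CPM with DMSO and 20.5, 18.4 and 19.9 CPM with SB24011, with no overlap. It fell by 0.58 ± 0.15 (adjusted p = 0.00543), and with library set 1 left out by 0.50 (adjusted p = 0.0551), which ended the call. The nuclease gene Mus81 rose by 0.64 ± 0.077. Trim29 had no read in any of the 6 libraries and was not tested. Of 21 MHC and peptide loading genes 4 rose and 1 fell (2 fell with the replicate block, and 2 rose without SB24011 replicate 3 and 7 when only the 2 groups were fitted), with Tapbpl, a peptide editor, higher by 1.21 ± 0.28 and Tap1 by 0.796 ± 0.199.

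Cytokine and chemokine genes were called higher about as often as genes in general, and called lower less often. Of 33 tested 8 rose (24.2%, where 20.4% of all genes did) and 1 fell (3.03%, where 24.3% of all genes did). A rise of at least 2-fold was called in 6 of the 33, where 4.86% of all genes had one. With the replicate block 3 fell, 13 rose in DESeq2, and 6 rose with library set 1 left out or under the stricter filter of 1 CPM on the mean. Their median was 0.64, against 0.219 without SB24011 replicate 1, 0.374 under that stricter filter and 0.101 with limma on log2(FPKM + 1). The median was the same with members that had no read in 1 group set at their bounds. Cxcl2, which attracts neutrophils, stood at 6.31, 10.5 and 3.65 CPM with DMSO and 65.6, 46.6 and 53.5 CPM with SB24011 and rose by 2.999 ± 0.42. Csf1, the growth factor of macrophages, stood at 1.83, 1.53 and 0.843 CPM with DMSO and 9.505, 7.11 and 5.68 CPM with SB24011 and rose by 2.37 ± 0.298. Il6 had no read with DMSO and 15, 5 and 8 reads with SB24011, a rise of at least 10.2-fold if 3 counts are set as the vehicle total. It lost its call with library set 1 left out (adjusted p = 0.0725). Tnf stood at 68.5, 86.9 and 60.3 CPM with DMSO and 112, 103 and 111 CPM with SB24011 and rose by 0.598 ± 0.16. Hbegf, an EGF receptor ligand, fell by 2.14 ± 0.68, but its adjusted p was 0.104 without DMSO replicate 2, 0.0671 and 0.0717 without SB24011 replicates 1 and 3, and 0.0752 with library set 1 left out. Of 32 NF-kB genes 13 rose and 3 fell (1 fell without SB24011 replicate 2 or 3), with a median of 0.26, or 0.168 without SB24011 replicate 1. Nfkbiz, an inducible regulator of secondary response genes, stood at 8.41, 9.698 and 7.84 CPM with DMSO and 30.7, 27.3 and 29.7 CPM with SB24011 and rose by 1.75 ± 0.27, and Nos2, the inducible nitric oxide synthase, by 2.004 ± 0.33. Cd40 and Ccrl2 rose by 2.44 ± 0.61 and 2.41 ± 0.45, with replicate 1 the highest in both, and the inhibitor gene Nfkbid fell by 0.75 ± 0.14.

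Immediate early genes fell more often than they rose, with 14 of 43 lower and 5 higher, or 8 higher with the replicate block and 9 lower with library set 1 left out. Arc stood at 8.12, 14.5 and 11.2 CPM with DMSO and 1.21, 2.28 and 1.66 CPM with SB24011 and fell by 2.72 ± 0.26, the phosphatase gene Dusp14 by 2.08 ± 0.27 and Egr1, named after its value was seen, by 1.32 ± 0.25. The Kruppel-like factor gene Klf4 stood at 9.54, 7.89 and 7.69 CPM with DMSO and 45.9, 36.9 and 36.6 CPM with SB24011 and went the other way, by 2.25 ± 0.16, as did Klf2 by 1.38 ± 0.18.

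Receptors and identity genes of macrophages changed member by member. Of 42 phagocytic and pattern recognition receptor genes 14 rose and 5 fell. Fcgr1, the high-affinity IgG receptor, stood at 18.3, 17.1 and 19.1 CPM with DMSO and 78.4, 66.4 and 62.99 CPM with SB24011 and rose by 1.93 ± 0.19. The inhibitory receptor genes Fcgr2b and Pirb rose by 1.89 ± 0.11 and 2.397 ± 0.298, and the integrin subunit gene Itgb5 by 1.25 ± 0.13. P2ry6, a receptor for UDP, fell by 1.096 ± 0.16 and the endotoxin co-receptor gene Cd14 by 0.85 ± 0.12. Of 14 migration receptor genes 4 rose and 6 fell. Cx3cr1, the fractalkine receptor, stood at 121, 85.9 and 94.3 CPM with DMSO and 23.2, 15.2 and 15.2 CPM with SB24011 and fell by 2.49 ± 0.22. S1pr1, a receptor of sphingosine 1-phosphate, stood at 2.08, 0.811 and 1.24 CPM with DMSO and 11.7, 10.6 and 11.6 CPM with SB24011 and rose by 3.03 ± 0.38. The chemokine receptor genes Ccr2 and Ccr1 went opposite ways: Ccr2 rose by 1.44 ± 0.21 and Ccr1 fell by 1.14 ± 0.22. Of 32 macrophage identity genes 10 rose and 4 fell (9 with the replicate block), with a median of 0.086. Fcgr1 and Cebpb, given above, are among those that rose. Among those that fell, Csf1r, the receptor of CSF1, did so from 1279, 1108 and 1195 CPM by 0.51 ± 0.077. Cebpa fell by 0.79 ± 0.14. Of 14 osteoclast genes 4 rose and 4 fell, or 2 rose without DMSO replicate 3 or any SB24011 replicate. Their median was -0.005. Nfatc1, a regulator of osteoclast formation, fell by 0.94 ± 0.18. The V-ATPase subunit gene Atp6v0d2 rose by 0.43 and lost its call under several alternatives.

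The largest rises were mostly in genes nearly silent with DMSO. This follows in part from the selection, because ranking by log2 fold change favours low vehicle levels. The level filter, 1 CPM on average, could be met by the SB24011 libraries alone. Car6, a secreted carbonic anhydrase, stood at 0.0294, 0.0295 and 0.0784 CPM with DMSO and 6.47, 8.18 and 6.99 CPM with SB24011, a rise of 7.31 ± 0.56. Extl1, a heparan sulfate enzyme gene, stood at 0.264, 0.5601 and 0.294 CPM with DMSO and 11.3, 13.9 and 10.8 CPM with SB24011 and rose by 4.98 ± 0.28. Aqp9, a channel for water and glycerol, stood at 0.4697, 1.09 and 0.667 CPM with DMSO and 13.96, 17.2 and 15.7 CPM with SB24011 and rose by 4.38 ± 0.29. Matrix genes among the 15 largest rises were Sned1 (5.89 ± 0.52), the collagen gene Col4a1 (5.61 ± 0.64) and Fbln5 (4.47 ± 0.72). The others were Gbp8 (6.53 ± 0.52), the muscle-type respiratory subunit gene Cox6a2 (4.24 ± 0.74), the histidine-degrading enzyme gene Hal (4.23 ± 0.38), Adh7 (3.91 ± 0.35), Angptl6 (3.76 ± 0.19, span shared with Shfl) and Sh2d6 (3.52 ± 0.3), besides Per2, Trib3 and Gadd45a described above. Genes of the 15 largest falls outside the lists were Sema7a, Tgif2, Ctnnal1 and Pald1. Sema7a, a semaphorin anchored to the membrane, fell by 2.703 ± 0.62, and Tgif2, a repressor in TGF-beta signalling, fell by 2.4 ± 0.19. Ctnnal1 fell by 2.15 ± 0.13 and Pald1 fell by 2.15 ± 0.21.

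Some transcripts had no read in 1 group, and their folds are lower bounds against 3 counts over that group. Tox2 had no read with DMSO and 38, 40 and 49 with SB24011, at least 46.1-fold higher. Tarm1, Cdhr3 and Dkk2 were at least 32.0-fold, 29.1-fold and 27.2-fold higher, and Wwtr1, which encodes TAZ, at least 26.2-fold. In the other direction Plcb1 had 15, 12 and 8 reads with DMSO and none with SB24011, at least 10.7-fold lower.

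Among abundant transcripts, measured per length as FPKM, the gains were led by Sqstm1, from 235 ± 29.1 to 1036 ± 19.6 FPKM (SD, n = 3), and Mt2, from 53.98 ± 27.4 to 289 ± 70.99 FPKM. Atf4 went from 174 ± 18.02 to 400.1 ± 8.51 FPKM and Ubb from 286 ± 12.2 to 459.8 ± 30.4 FPKM. Grn, Lgals3, Fth1 and Ctsb were the other 4 of the 8 largest gains; Lgals3, galectin 3, rose by 0.52 ± 0.065 and the cathepsin gene Ctsb by 0.39 ± 0.089. The call of the ferritin gene Fth1 (0.49 ± 0.18) ended without DMSO replicate 1 or 3 or SB24011 replicate 2 or 3 (0.33 to 0.51). The losses were led by the glycolytic enzyme gene Pkm, from 1830.2 ± 48.5 to 1495 ± 25.4 FPKM, which fell by 0.3 ± 0.058 and lost its call with library set 1 left out (-0.21, adjusted p = 0.0551). Actb, Cfl1 and S100a4, which act on the cytoskeleton, fell by 0.39 ± 0.084, 0.42 ± 0.055 and 0.49 ± 0.079. The chromatin protein gene Ptma fell by 0.64 ± 0.092, and Ldha, Tuba1b and Hspa8 completed the 8 largest losses.

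The same dose on top of cGAMP gave a separate measurement of SB24011 in libraries that share none with the 6 above. Of 14650 genes 6201 (42.3%) were called between cGAMP with 20 uM SB24011 and cGAMP, 3180 higher (21.7%) and 3021 lower (20.6%). Of the 2988 genes higher with SB24011 alone 2340 were also called higher on cGAMP, 78.3% of them and 73.6% of the calls on cGAMP, and 1 was called lower. Of the 3553 lower ones 2596 were called lower on cGAMP, 73.1% and 85.9%, and 5 were called higher. Among at least 2-fold changes 519 of 712 rises and 241 of 315 falls were called the same way and none the opposite way. Across the 14650 genes, which are not independent, the log2 fold changes had a Pearson r of 0.665 and a Spearman rho of 0.797. The interaction, which tests whether the change differs with cGAMP, was called in 54 genes (0.369%).

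**Figure D4:**
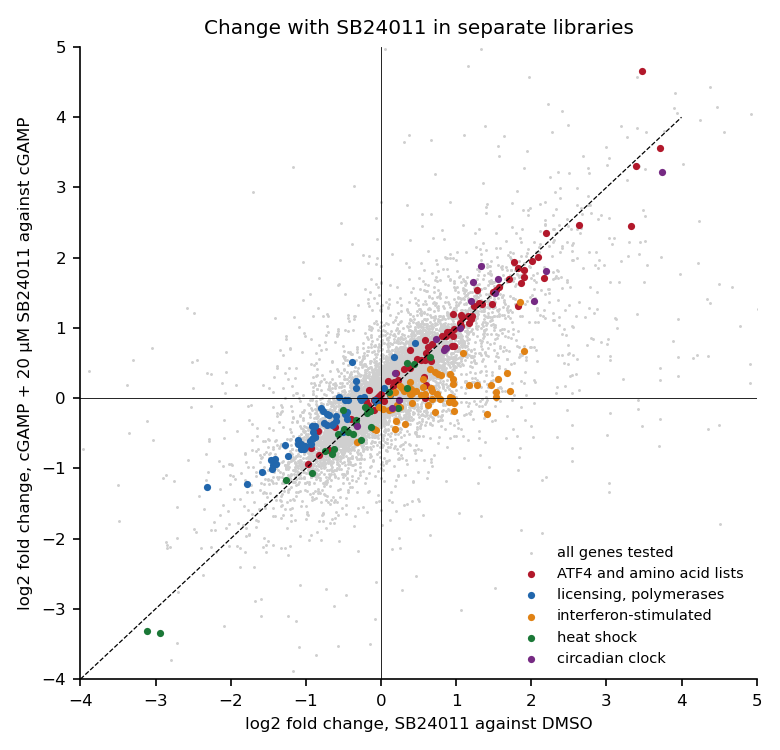
Log2 fold change with SB24011 against DMSO (x axis) and with 20 uM SB24011 on cGAMP against cGAMP (y axis) for the genes tested, with the dashed line marking equal change; 153 genes lie outside the axes. Grey points are all genes and coloured points the named lists; the ATF4, amino acid, heat shock and clock lists lie along the line, the licensing and polymerase genes lie mostly above it and most interferon-stimulated genes lie near 0 on the y axis.

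List values in these separate libraries were as follows. For ATF4 factors 18 of 20 rose on cGAMP with a median of 1.45, for amino acid transporters 12 of 16 rose with 0.82, and for clock genes 12 of 16 rose with 1.19. Heat shock genes had 18 of 28 lower with -0.34. Trib3 rose by 3.55 ± 0.22 on cGAMP, Sqstm1 by 2.08 ± 0.11, Cth by 3.301 ± 0.13 and Per2 by 3.22 ± 0.53. Hspa8 fell by 1.16 ± 0.11 and Slc39a10 by 2.11 ± 0.12. Replication lists had smaller medians on cGAMP, with -0.40 against -0.87 for licensing and -0.32 against -0.70 for the fork, and the interaction was called in 4 of 27 and 7 of 28 genes, where the background is 0.369%. Cdc6 fell by 2.31 ± 0.12 alone and by 1.27 ± 0.12 on cGAMP, a difference of 1.04 on the log2 scale (adjusted p = 0.0104). Interferon-stimulated genes had 3 of 60 higher and 3 lower on cGAMP with a median of 0.065, and in edgeR the interaction was called in none of the 60. At an unadjusted p under 0.05 it was 25 of 60, all with a lower value on cGAMP, where 8.96% of all genes passed that unadjusted threshold. SB24011 replicate 1, which held the highest interferon list median, is part of this interaction, and its part in it was not tested. Ribosomal protein genes had 33 of 79 higher on cGAMP, with a median of 0.11. The values on cGAMP were fitted with TMM scaling only. Without cGAMP the direction of this list depended on the scaling, so none was read here.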

How the data were processed

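Poly(A) RNA of RAW264.7 cells was made into stranded mRNA libraries, per the labels' protocols, and the submitters' processing notes list StringTie 2.1.3b, HISAT2 2.1.0, Trimmomatic 0.38 and Bowtie2 2.3.4.1, and the build GRCm38. How reads were counted, and whether strand was used, is not given in the sources used here, so overlapping and near-identical genes are uncertain. The deposited table held read counts per gene and FPKM made by the authors, per the file headers, for 45777 genes; its TPM columns and a table of quantile-normalised values were not used, and no column was left unmapped. The counts of all 18 libraries entered edgeR 4.0.16 (R 4.3.3) as 6 groups of 3 libraries in one fit, with TMM factors, filterByExpr and the robust quasi-likelihood F-test. p-values were Benjamini-Hochberg adjusted over 14650 genes, calls are at an adjusted p under 0.05, errors of log2 fold changes are SEs, and CPM are TMM-scaled. Libraries held 48836900 to 65810500 counts, and the floor of 3 counts covers counting error only.

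Same-numbered replicates of the 2 groups deviated together (Pearson r of 0.178, 0.131 and 0.125, others -0.094 to -0.036), so the library set pairs them. The labels' titles give a number per library, and the sets are inferred from it. With library set 1 left out, replicate 1 of DMSO and of SB24011 was removed, and the cGAMP libraries stayed in the fit. Lists and members were chosen with earlier results of these data known. Named genes were the 15 largest rises and falls at a mean of at least 1 CPM, the 8 largest FPKM gains and losses, up to 4 called members per list, exceptions and a fixed set. Shmt1, Shmt2, Mthfd1, Mthfd2, Atf3, Chac1, Sesn2, Nupr1, Ppp1r15a, Cebpb and Slc7a5 were named after their values were seen. So were Pcna, E2f1, Egr1, Apoe, Ppp1r15b, Pold2, Dnajb9, Pdia3, Pdia4 and Mt1. The same holds for Hsp90b1, Pdia6, Dnajb11, Dnajc3, Manf, Creld2, Hyou1 and Ero1lb. The printed promoters were chosen because they hold a match. Alternatives were other scalings and filters, DESeq2 1.42.0, limma 3.58.1 on log2(FPKM + 1) and log2(FPKM + 0.1), the replicate block, and libraries left out. The edgeR test of SB24011 against DMSO was checked on simulated counts. The tests on cGAMP, the interaction and the alternatives were not. Promoters came from RefSeq, GRCm38.p6.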

Additional observations from a re-analysis of the deposited data

Results flagged for a closer look

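For 7 named genes the change with SB24011 differed between cells with and without cGAMP in the edgeR interaction test. For 6 of them the fall was smaller on cGAMP. The change on cGAMP minus the change without it was 1.04 on the log2 scale for Cdc6 (adjusted p = 0.0104), 1.03 for Ccne1 (adjusted p = 0.0374), 0.593 for Chaf1a (adjusted p = 0.0134), 0.529 for Rpa2 (adjusted p = 0.0134) and 0.469 for Mcm6 (adjusted p = 0.0309). It was 1.26 for Ctnnal1, an alpha-catenin relative (adjusted p = 0.00389). All 6 fell under both conditions. The G1/S list as a whole had a median of -0.652 alone and -0.684 on cGAMP, and Ccne1 was its 1 member of 26 with a called interaction. For Fcgr1, which rose by 1.93 alone and by 0.55 on cGAMP, it was -1.38 (adjusted p = 0.0325). The interaction was called in 54 of 14650 genes (0.369%).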

How the results depend on the processing

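No called gene was called in the opposite direction under the alternatives of scaling, filter, test, samples and block, but the balance of some results turned. Of all calls 45.7% were higher, against 57.4% with library size alone and 55.7% with library set 1 left out. The ribosomal protein list went from 1 higher and 6 lower to 7 and 0 with library size alone. Under that setting its median went from -0.017 to 0.056, and the median over all genes tested went from -0.0067 to 0.0637. The median over all genes was 0.0463 with library set 1 left out. With library set 1 left out glycolysis went from 6 higher and 13 lower to 6 and 4, the cGAS-STING list from 5 and 7 to 5 and 2 and the ER list from 9 and 10 to 9 and 4. The cause was not tested. Medians close to 0 changed sign in 5 lists: the NRF2 list (-0.034, up to 0.066 without DMSO replicate 2), the ribosomal protein list (-0.017, up to 0.056), the osteoclast list (-0.005, up to 0.068), the BCL2 family list (-0.066, 0.007 with library size alone) and the MHC list (0.063, -0.016 without DMSO replicate 1). The count of genes lower with SB24011 was 2177 with library set 1 left out. The count at least 2-fold higher was 445 under the stricter filter of 1 CPM on the mean and 197 with limma on log2(FPKM + 1), and the count at least 2-fold lower was 208 and 93 under the same settings. The stricter filter tests fewer genes, and a pseudocount of 1 shrinks the changes of low genes, both by construction. Leaving out 1 library at a time gave 2519 to 2718 genes higher, 3059 to 3199 lower, 614 to 714 at least 2-fold higher and 286 to 331 at least 2-fold lower. With the replicate block 3603 genes were higher and 4208 lower, and beside the list counts given with it in the report it changed no count by over 1.5 times. Over 274 named genes and their alternatives 4129 values kept their call, 244 lost it and 2 gained it, and 217 genes kept it throughout. Depth limits the cytokine list, where Il6, Il10 and Ccl12 had 28, 8 and 6 reads with SB24011 and none with DMSO.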

Other observations

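By annotated class, protein-coding genes made up 11906 of the 14650 genes tested in edgeR, with 2689 higher (22.6%) and 3281 lower (27.6%). Over all genes tested the shares were 20.4% and 24.3%. Of 1103 lncRNA genes 151 (13.7%) were higher and 98 (8.89%) lower. Of 102 snoRNA genes 16 were lower (15.7%, under the share over all genes tested) and none higher. Most snoRNA genes lie in introns of other genes, and their reads cannot be told apart with certainty from those of the host.

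On cGAMP, 10 and 20 uM SB24011 were both measured against the same 3 cGAMP libraries. Trib3 was higher by 3.39 at 10 uM and 3.55 at 20 uM on the log2 scale, and Per2 by 3.29 and 3.22. Sqstm1 was higher by 1.93 and 2.08, and Cth by 3.26 and 3.301. Cdc6 fell by 1.33 and 1.27, and Hspa8 fell by 1.05 and 1.16. SB24011 without cGAMP was tested at 20 uM only, so its dose dependence was not measured.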
